A study of Rattus norvegicus with 58 samples.

Results

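The genes described here are 6 alcohol and aldehyde dehydrogenases, Adh1, Adh4, Aldh1a1, Aldh1a7, Aldh2 and Aldh3a2, in rat liver. They were looked up by gene symbol in the platform annotation of the array, and 5 of the 6 were found, with 6 probe sets among 31042. Adh1 is listed there under its current symbol Adh1c, which RefSeq (assembly GRCr8) gives with Adh1 as a synonym, and it has 2 probe sets. Aldh1a7, a rodent relative of Aldh1a1, was not found under that symbol in the annotation used here, so no value is given for it. A gene is represented by its probe set of highest mean over all arrays, and 14217 genes had such a probe set. The rats were males of 17 weeks, killed after a night without food. Among the 58 arrays, 46 measured rats of the heterogeneous stock (HS), an outbred colony bred from inbred founder strains: 23 glucose-intolerant and 23 glucose-normal animals. The other 12 arrays held 2 rats of each inbred line: ACI, BN, BUF, F344, M520 and WKY. No transgene, deletion or drug treatment is named in the labels of any group, and the inbred rats carry no glucose label.

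Alcohol dehydrogenases pass electrons from an alcohol to NAD+ and leave an aldehyde, and aldehyde dehydrogenases oxidise the aldehyde to an acid. In hepatocytes the cytosolic class I enzyme (Adh1) and the mitochondrial Aldh2 form the main path that takes ethanol through acetaldehyde to acetate. The same families act on retinoids and lipids: Adh4, the class II enzyme, oxidises retinol and longer alcohols, Aldh1a1 turns retinal into retinoic acid, and Aldh3a2 is the membrane-bound fatty aldehyde dehydrogenase.

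RefSeq (GRCr8) gave a promoter window for 4 of the genes, from 250 bases before to 50 bases after the annotated start. Those of Adh1, Adh4 and Aldh1a1 are shown because these genes differed among strains and varied between HS rats, and that of Aldh3a2 because it did not pass the strain test. The windows are chr2:229470453-229470752 on the + strand for Adh1, chr2:229621842-229622141 on the + strand for Adh4, chr1:227537370-227537669 on the + strand for Aldh1a1 and chr10:46448286-46448585 on the - strand for Aldh3a2. Each is printed 5′ to 3′, and capitals mark matches to the motifs described after them.
Adh1: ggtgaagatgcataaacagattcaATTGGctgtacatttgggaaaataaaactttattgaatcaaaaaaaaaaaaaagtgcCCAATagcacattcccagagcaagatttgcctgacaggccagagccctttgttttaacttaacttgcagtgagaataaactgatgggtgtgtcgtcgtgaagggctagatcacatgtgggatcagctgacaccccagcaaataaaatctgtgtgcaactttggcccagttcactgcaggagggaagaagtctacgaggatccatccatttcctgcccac
Adh4: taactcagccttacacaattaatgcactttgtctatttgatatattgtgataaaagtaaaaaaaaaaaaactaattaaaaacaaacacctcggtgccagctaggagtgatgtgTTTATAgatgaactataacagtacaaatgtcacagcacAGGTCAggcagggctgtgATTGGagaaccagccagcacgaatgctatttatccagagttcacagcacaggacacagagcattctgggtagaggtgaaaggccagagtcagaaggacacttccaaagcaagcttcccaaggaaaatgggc
Aldh1a1: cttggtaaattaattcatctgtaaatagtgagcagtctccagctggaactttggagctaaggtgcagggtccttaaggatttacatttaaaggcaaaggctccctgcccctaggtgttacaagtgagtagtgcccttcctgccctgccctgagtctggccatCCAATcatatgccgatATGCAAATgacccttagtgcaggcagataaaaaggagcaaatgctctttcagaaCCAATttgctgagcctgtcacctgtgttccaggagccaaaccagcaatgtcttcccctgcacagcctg
Aldh3a2: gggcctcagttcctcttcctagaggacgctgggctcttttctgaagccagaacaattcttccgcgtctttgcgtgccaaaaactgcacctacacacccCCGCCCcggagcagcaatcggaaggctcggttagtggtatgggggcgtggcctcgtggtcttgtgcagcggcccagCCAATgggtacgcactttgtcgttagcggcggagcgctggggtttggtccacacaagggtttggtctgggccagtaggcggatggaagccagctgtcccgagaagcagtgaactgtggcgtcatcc

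Both strands were searched for a core promoter box with the letters TATAAA, a second promoter element with the letters CCAAT, the Sp1-type element GGGCGG, a nuclear receptor half-site AGGTCA, an HNF1 half-site GTTAAT, an E-box CACGTG, a D-box TTATGTAA and an octamer ATGCAAAT. Positions count from the annotated start and name the leftmost base of a match. Every one of the 4 windows held the letters CCAAT, or the same element on the other strand as ATTGG: at -226 and -169 in Adh1, -81 in Adh4, -88 and -18 in Aldh1a1, and -76 in Aldh3a2. Of 33469 promoter windows of 300 bases, 37.5% hold these letters. Adh4 also held the half-site AGGTCA at -99, found in 16.2% of windows, and at -137 the letters TTTATA, the core box read from the other strand, found in 14.2%. Aldh1a1 held ATGCAAAT at -72, found in 1.78% of windows, and Aldh3a2 held the Sp1-type element on the other strand, CCGCCC, at -152, found in 33.1%. The HNF1 half-site, the E-box and the D-box letters, in 7.45%, 6.42% and 0.893% of windows, were in none of these 4. G and C made up 43.3%, 41.3% and 48.3% of the Adh1, Adh4 and Aldh1a1 windows and 60.3% of that of Aldh3a2, against a median of 51.7% over all windows. A match of letters is a description and not a binding site.

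Values are log2 expression as deposited, so a difference of 1 is a 2-fold difference. Array medians lay between 5.33 and 5.39, single values between 1.86 and 14.97, and the 2 arrays of a strain correlated at 0.989 to 0.997. Nothing in the labels tells whether a strain's pair of arrays stands for rats of different litters or days, so a p-value here reflects no more than the spread among these arrays, which may be technical. How precise a value is depends on how many arrays measured it. The tissue is whole liver, in which fewer cells of a type and less RNA per cell cannot be told apart. Hepatocyte markers averaged 13.5 to 13.8 on the HS arrays.

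The inbred strains differed in 3 of these genes. Adh4, Aldh1a1 and Adh1 were all lowest in WKY liver: against the mean of the other 5 strains Adh4 was 4.38-fold lower, Aldh1a1 3.78-fold lower and Adh1 1.48-fold lower. Adh4 was high in BUF, BN and M520, and Aldh1a1 was highest in M520. By limma's moderated F test over the 6 strains, 3 of the 5 genes passed an adjusted p of 0.05, where 11.9% of all probe sets and 13.8% of all genes did. The genes were chosen with earlier results of these data known, so these shares are a description. Aldh2 and Aldh3a2 did not pass.

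**Figure D1:**
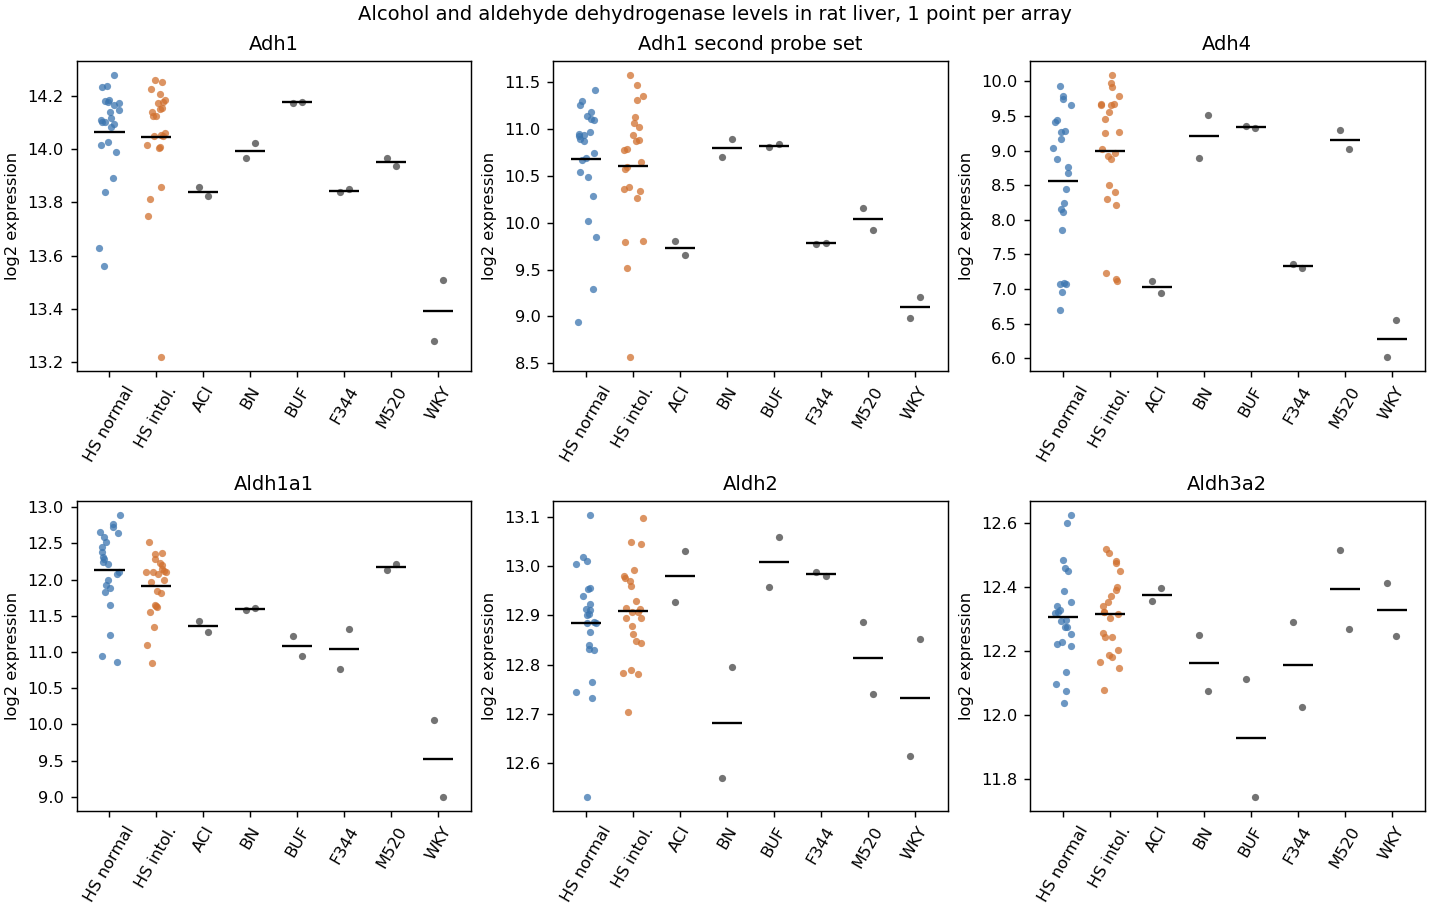
Log2 expression of each dehydrogenase probe set (vertical axis) on every array, by group: HS glucose-normal, HS glucose-intolerant and the 6 inbred strains, with 1 point per array and a bar at each group mean; the vertical scales differ between panels. The WKY arrays sit lowest among the inbred arrays for Adh1, Adh4 and Aldh1a1, and the HS groups overlap for every gene.

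Adh1 makes the class I enzyme that starts ethanol removal. Its 2 arrays read 13.86 and 13.82 in ACI, 13.96 and 14.02 in BN, 14.17 and 14.18 in BUF, 13.84 and 13.85 in F344, 13.97 and 13.93 in M520, and 13.28 and 13.51 in WKY. Both WKY arrays lay below every other inbred array, and both BUF arrays above. WKY differed from the mean of the other 5 strains by -0.57 ± 0.09 (SE, n = 2 arrays; limma adjusted p = 0.00435), and 2.07% of probe sets were lower in WKY. BUF differed by 0.37 ± 0.09 (SE; limma adjusted p = 0.0397), and 2.49% of probe sets were higher in BUF. In the order WKY, ACI, F344, M520, BN, BUF no strain passed the test against its neighbour, and the 3 pairwise differences that passed set WKY below BN, BUF and M520. The BUF call was lost, at limma adjusted p = 0.0595 to 0.354, without any one of the ACI, BN, BUF or M520 arrays or without F344 replicate 1. The WKY call was lost without WKY replicate 1 (-0.45, limma adjusted p = 0.111), as was the F test, whose adjusted p moved from 0.0142 to 0.0739.

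The second probe set of Adh1 ran over a wider scale. It read 9.81 and 9.65 in ACI, 10.70 and 10.90 in BN, 10.81 and 10.84 in BUF, 9.78 and 9.78 in F344, 10.16 and 9.93 in M520, and 8.99 and 9.21 in WKY. WKY was again below all other inbred arrays, while BN and BUF overlapped at the top. Against the other 5 strains WKY differed by -1.14 (limma adjusted p = 9.6e-05), BUF by 0.93 (adjusted p = 0.000662) and BN by 0.90 (adjusted p = 0.000476). Of the 15 pairs of strains 11 passed the test, against 3 with the first probe set. Over the 46 HS rats the probe sets ranked the animals alike, with Pearson r = 0.965 and Spearman rho = 0.942 (permutation p = 1e-05 for each, the smallest that 100000 resamples can give), and r = 0.965 without the 2 rats farthest from the median. The second probe set changed by 3.15 for each unit of the first on the log2 scale. The first sits close to the highest value in the table, 14.97, and why the scales differ was not tested. The direction of the WKY and BUF differences was the same with either probe set, and the size of an Adh1 difference depends on which is read.

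**Figure D2:**
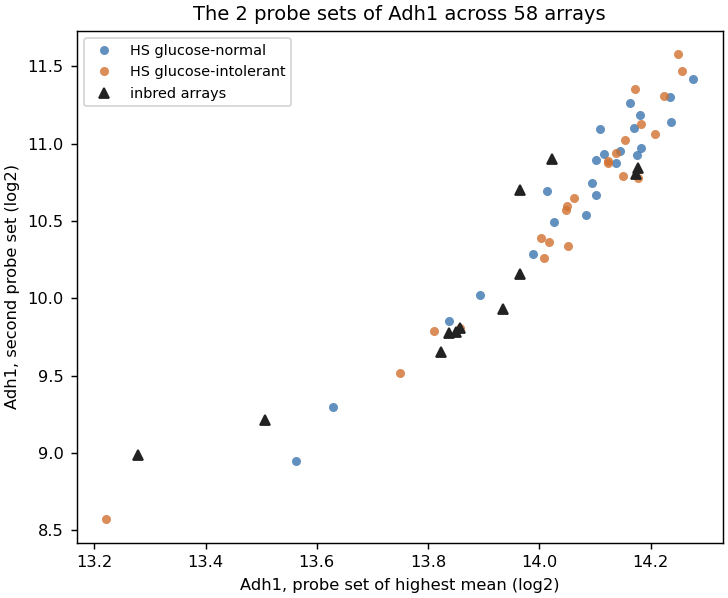
Log2 expression of the second Adh1 probe set (vertical axis) against that of the first (horizontal axis) on all 58 arrays, with HS glucose-normal and glucose-intolerant rats as circles and inbred arrays as triangles. The points follow 1 rising band, and the second probe set spans 3.01 over the HS rats while the first spans 1.06.

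Adh4 had the widest strain range of the 5 genes. Its arrays read 7.12 and 6.95 in ACI, 8.90 and 9.51 in BN, 9.36 and 9.33 in BUF, 7.36 and 7.31 in F344, 9.30 and 9.02 in M520, and 6.02 and 6.55 in WKY. The strains fell into a high set of BN, BUF and M520 and a low set of ACI, F344 and WKY, with no overlap between the sets. The sets were drawn from these same values. Within the low set, F344 lay 1.05 above WKY (2.07-fold; limma adjusted p = 0.0183). From WKY to BUF the means rose by 3.06, an 8.34-fold difference (F test, limma adjusted p = 7.24e-06). That range exceeded the range of 99.7% of all probe sets.

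Every strain differed from the mean of the other 5 for Adh4. WKY was lower by -2.13 ± 0.16 (SE; limma adjusted p = 1.97e-05), ACI by -1.23 ± 0.16 (adjusted p = 0.00199) and F344 by -0.87 ± 0.16 (adjusted p = 0.0220), in strains where 2.07%, 1.08% and 0.786% of probe sets were lower. BUF was higher by 1.54 ± 0.16 (limma adjusted p = 0.000411), BN by 1.37 ± 0.16 (adjusted p = 0.000532) and M520 by 1.32 ± 0.16 (adjusted p = 0.00121), where 2.49%, 2.6% and 1.89% were higher. Only the WKY arrays lay beyond all other inbred arrays. Of the 15 pairs of strains 10 passed, beside 3.88% of all pairwise tests of all probe sets. Between neighbours in the order WKY, ACI, F344, M520, BN, BUF, the single step that passed was the one between F344 and M520, where F344 minus M520 was -1.82 ± 0.21 (3.54-fold; limma adjusted p = 0.000862). WKY and ACI, 0.75 apart, did not pass (adjusted p = 0.101), nor did the steps within the high set (adjusted p = 0.944 for M520 and BN, 0.773 for BN and BUF). The ACI call was lost without ACI replicate 2 (limma adjusted p = 0.0763), and the F344 call without ACI replicate 1 (0.0520), F344 replicate 1 (0.157) or F344 replicate 2 (0.223). In 1 fit of all 58 arrays, where the wide HS spread of Adh4 enters the error, the F test still passed (adjusted p = 0.0161) and none of the 6 single-strain differences did (adjusted p = 0.0635 for WKY).

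Aldh1a1 makes the cytosolic retinal dehydrogenase. It read 11.43 and 11.27 in ACI, 11.58 and 11.60 in BN, 11.22 and 10.94 in BUF, 10.77 and 11.32 in F344, 12.13 and 12.21 in M520, and 10.06 and 9.0 in WKY. Both WKY arrays were the lowest and both M520 arrays the highest of the 12, and the WKY arrays were themselves 1.06 apart. WKY differed from the other 5 by -1.92 ± 0.22 (SE; limma adjusted p = 0.000382) and M520 by 1.25 ± 0.22 (2.38-fold; limma adjusted p = 0.00878). The highest mean was 6.25-fold above the lowest (F test, limma adjusted p = 0.00138), a range above that of 99.4% of all probe sets. In the order WKY, F344, BUF, ACI, BN, M520, the step from WKY to F344 passed (1.51 ± 0.28, 2.86-fold; limma adjusted p = 0.0113) and the others did not. In the 6 pairwise differences that passed, WKY was below each of the other 5 strains and M520 above BUF (2.13-fold; limma adjusted p = 0.0481). The M520 call rests on both of its arrays: without replicate 1 the adjusted p was 0.109, and without replicate 2 it was 0.116.

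Aldh2, the mitochondrial enzyme that clears acetaldehyde, stayed within a narrow band. It read 12.93 and 13.03 in ACI, 12.57 and 12.79 in BN, 12.96 and 13.06 in BUF, 12.99 and 12.98 in F344, 12.89 and 12.74 in M520, and 12.61 and 12.85 in WKY. BN held the lowest array, and all 12 arrays lay within 0.49 of each other. The strain means spanned 0.33 (F test, limma adjusted p = 0.285), no strain passed against the other 5 (smallest adjusted p = 0.320, in BN), and no pair of strains passed.

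Aldh3a2, the fatty aldehyde dehydrogenase, did not pass either. It read 12.36 and 12.40 in ACI, 12.25 and 12.08 in BN, 12.11 and 11.74 in BUF, 12.29 and 12.02 in F344, 12.52 and 12.27 in M520, and 12.41 and 12.25 in WKY. BUF held the lowest array and M520 the highest, and the BUF arrays lay further apart than the pair of any other strain. The strain means spanned 0.47 (F test, limma adjusted p = 0.25), and the largest single difference, in BUF, was -0.36 (adjusted p = 0.114).

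Counted by strain, WKY had 3 of the 5 genes lower and none higher, BUF and M520 had 2 higher, BN had 1 higher, and ACI and F344 had 1 lower. In the directions in which none of these genes passed, the share of probe sets called was 1.34% higher in ACI, 2.08% lower in BN, 3.27% lower in BUF, 0.821% higher in F344, 2.76% lower in M520 and 2.67% higher in WKY. On the ethanol path Adh1 passed the F test and Aldh2 did not, and the difference between them was not itself tested.

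**Figure D3:**
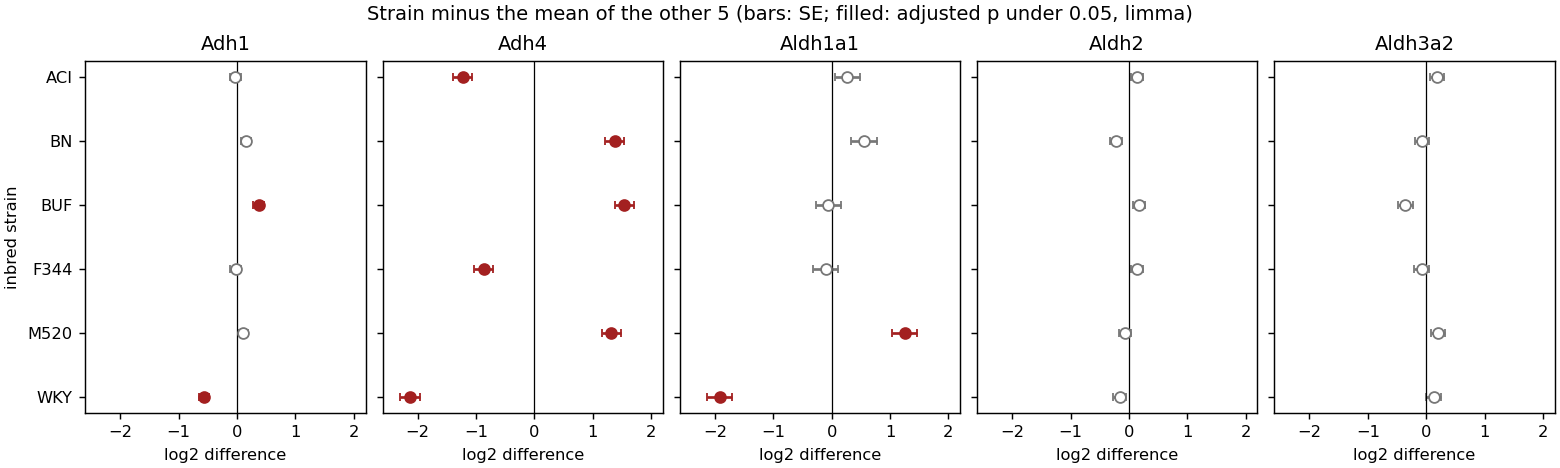
Log2 difference of each inbred strain from the mean of the other 5 (horizontal axis) for the 5 genes, with bars for the standard error and filled points where limma's adjusted p was under 0.05. Adh4 has 6 filled points from -2.13 in WKY to 1.54 in BUF, Adh1 and Aldh1a1 have 2 each, and Aldh2 and Aldh3a2 have none.

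Markers of liver cell types did not all stay level across these strains. In WKY, 0 of 11 hepatocyte markers passed the test and their median difference was 0.09, with mean marker levels of 13.76 to 13.84 on the WKY arrays. Of 13 stellate cell and matrix markers 3 were higher in WKY, and their mean level was 6.77 to 7.40 there against 7.12 to 7.13 in BN, 6.35 to 6.40 in M520 and 6.16 to 6.27 in BUF, the strains of high Adh4. In BN 1 of these markers was higher, in M520 1 was lower and in BUF 3 were lower. Of 11 Kupffer cell and macrophage markers 1 was higher in WKY, at a mean level of 9.25 to 9.54, and BN had 2 higher (9.11 to 9.88), BUF 1 higher and 3 lower (8.71 to 8.90) and M520 3 lower (8.54 to 8.71). Among 10 endothelial markers none passed in WKY (7.76 to 7.93), 2 were lower in BUF (7.28 to 7.61) and 2 in M520 (7.19 to 7.44), and 5 were higher in BN (7.97 to 8.16). Bile duct markers (4.71 to 5.16 in WKY) and blood cell markers (5.41 to 5.88) had none called in WKY. Over all genes, 502 of 14217 were higher and 322 lower in WKY. In BN 478 were higher and 340 lower, in BUF 426 and 549, and in M520 190 and 600. The part of these other cell types in the dehydrogenase differences was not tested.

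Liver zones were read from hepatocyte genes of each zone. Among 12 pericentral genes, 1 was lower in WKY (Oat, -0.85, limma adjusted p = 0.0376), with mean levels of 9.70 to 10.28 on its arrays against 10.24 to 10.27 in BN, 9.77 to 9.99 in M520 and 9.93 on both BUF arrays. In BN 3 pericentral genes were higher, and in BUF 1 was higher and 1 lower. Among 11 periportal genes, 1 was lower in WKY (Gls2, -0.78, limma adjusted p = 0.00946) and 3 were lower in M520, while 2 were higher in BN and 2 in BUF. The part of liver zones in the dehydrogenase differences was not tested.

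In GRCr8 the alcohol dehydrogenase genes lie side by side in the order Adh7, Adh1c, Adh6a, the pseudogene Adh1-ps1, Adh6, Adh4 and Adh5, with lncRNA genes between some of them. Adh7, the class IV enzyme known for retinol oxidation, read 6.48 and 6.60 in WKY and 7.93 and 8.60 in BUF, the lowest and highest strains. It differed by -0.80 in WKY (limma adjusted p = 0.00948) and by 1.27 in BUF (adjusted p = 0.000733). Adh5, the glutathione-dependent formaldehyde dehydrogenase, exceeded the other strains in BN by 0.44 (limma adjusted p = 0.0413), and in WKY it differed by -0.38 (adjusted p = 0.0693). Adh6a read between 4.52 and 5.14 over the HS rats, below the array medians, and did not pass among strains (F test, limma adjusted p = 0.331). WKY was thus the lowest strain for Adh1, Adh4, Adh5 and Adh7, of which Adh5 did not pass the single-strain test.

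Of 6 other alcohol dehydrogenase genes measured, Adh7 and Adh5 passed the F test, and of 14 other aldehyde dehydrogenases 4 did, beside 13.8% of all genes. Aldh7a1, an enzyme of lysine breakdown, was lower in WKY by -0.60 (limma adjusted p = 0.00730), and Aldh9a1, which acts on aminoaldehydes, by -0.42 (adjusted p = 0.0439). Aldh1a3, a second retinal dehydrogenase, was higher in WKY by 0.80 (limma adjusted p = 0.0176), opposite to Aldh1a1. Aldh1b1, a mitochondrial relative of Aldh2, was lower in M520 by -0.93 (limma adjusted p = 0.00441), where its mean of 4.90 lay below the array medians.

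Other steps of ethanol, acetate and retinoid handling showed strain differences of their own. Of 6 further ethanol and acetate genes 2 passed the F test, beside 13.8% of all genes. Aox1, an aldehyde oxidase, differed by -2.17 in BN (limma adjusted p = 4.82e-06), 0.93 in ACI (adjusted p = 0.00431) and 0.68 in M520 (adjusted p = 0.0202). Acss3, an acyl-CoA synthetase, differed by -0.88 in BUF (limma adjusted p = 0.00809). Cyp2e1, the ethanol-oxidising cytochrome, did not pass (F test, limma adjusted p = 0.364). Of 27 retinoid genes 6 passed. Rdh16, a retinol dehydrogenase of the short-chain family, was lower in WKY by -1.13 (limma adjusted p = 0.00119), and BN exceeded the others by 1.33 (adjusted p = 0.00037). Bco1, which splits carotene to retinal, was higher in BN by 1.80 (limma adjusted p = 1.55e-05), Lrat, which esterifies retinol, lower in BUF by -0.96 (adjusted p = 0.0256), and Rdh5 lower in M520 by -0.77 (adjusted p = 0.0202).

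Of 19 liver transcription factors and nuclear receptors 5 passed the F test, beside 13.8% of all genes. Nr1i3, the xenobiotic receptor CAR, was lower in WKY by -1.55 (limma adjusted p = 0.000197) and Ppara, the fatty acid receptor, was higher there by 0.65 (adjusted p = 0.0391). Ahr was lower in BUF by -1.20 (limma adjusted p = 0.0133) and Nr1h4, the bile acid receptor, lower in BN by -0.64 (adjusted p = 0.00502). Over the 46 HS rats, Nr1i3 correlated with Adh1, Adh4 and Aldh1a1 at r = -0.14, 0.13 and 0.07. Hnf4a, of the same list, correlated with them at r = -0.43, -0.46 and -0.35. It did not pass among strains (F test, limma adjusted p = 0.840). These r are given as a description, and the part of these regulators in the dehydrogenase differences was not tested.

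**Figure D4:**
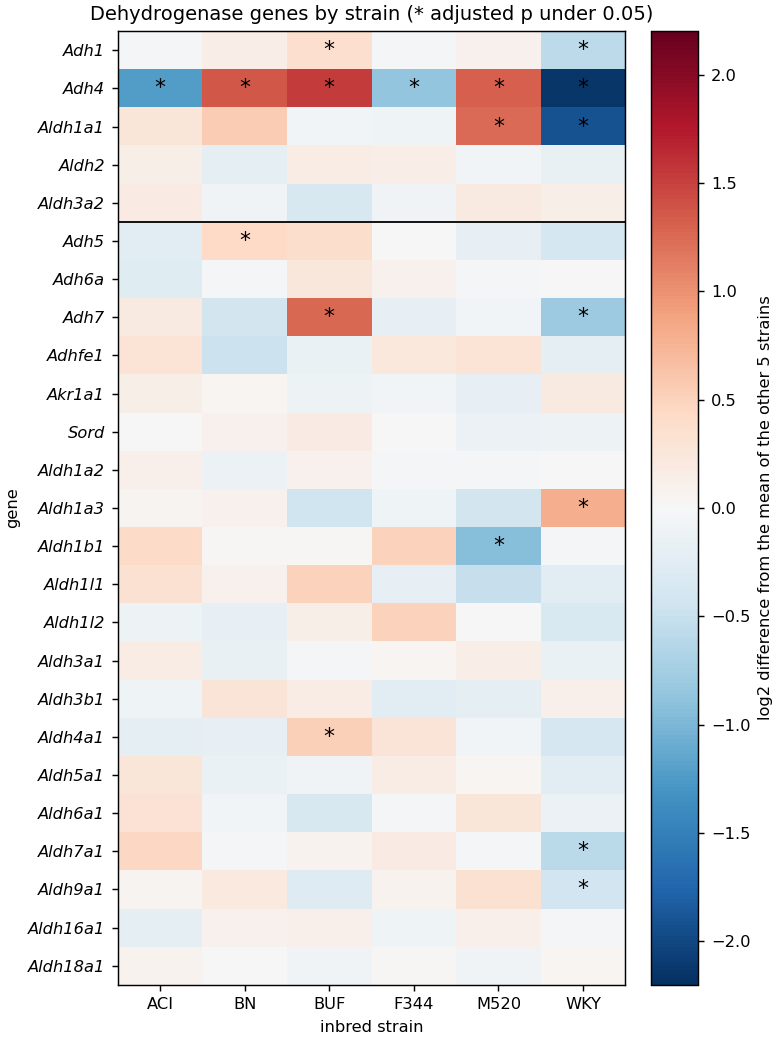
Log2 difference of each inbred strain (columns) from the mean of the other 5 for the 5 dehydrogenases described (above the line) and the other alcohol and aldehyde dehydrogenase genes measured (below it), in blue where lower and red where higher; stars mark limma adjusted p under 0.05. The WKY column holds stars for Adh1, Adh4, Aldh1a1, Adh7, Aldh7a1 and Aldh9a1 in blue and for Aldh1a3 in red.

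Among the outbred HS rats Adh4 varied most of the 5 genes and Aldh2 least. Adh4 had an SD of 0.98 over the 46 rats, above that of 99.6% of all probe sets, and Aldh1a1 an SD of 0.50, above 96.6%. Adh1 varied with an SD of 0.20 by its first probe set and 0.66 by its second, above 65.4% and 98.6% of all probe sets. Aldh3a2, with an SD of 0.14, exceeded 19.1% of probe sets and Aldh2, with 0.11, exceeded 3.26%. No HS rat fell below the WKY mean for Adh4 or Aldh1a1 and 1 did for Adh1. Above the highest strain mean were 16 of 46 HS rats for Adh4, 19 for Aldh1a1 and 11 for Adh1. By the second Adh1 probe set 23 of 46 lay above the highest strain mean and 2 below the lowest. HS and inbred arrays were not compared by a test, since the labels give no batch.

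Adh4 levels of the HS rats left a gap. In 8 rats they lay between 6.70 and 7.23 and in the other 38 from 7.86 upward, and the empty stretch of 0.62 was 18.4% of the whole range. Of the 8 low rats 5 were glucose-normal and 3 glucose-intolerant. Of these 8, 6 were also among the 8 rats lowest in Adh1, 5 among the 8 lowest in Aldh1a1, 4 in Aldh3a2 and 1 in Aldh2. The gap was located after the values were seen. Because the 8 rats were picked by Adh4 level, these counts restate how Adh4 varied with each gene over the same rats.

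The 10 pairs among the 5 genes were correlated over the 46 HS rats, each with a two-sided permutation test. The permutations exchanged all rats freely, and the labels do not tell whether some shared a litter or a day. Adh1 and Adh4 rose together with Pearson r = 0.680 (permutation p = 1e-05, adjusted over the 10 pairs 0.0001) and Spearman rho = 0.563 (permutation p = 0.00013, adjusted 0.00085). Without the 2 rats farthest from the median of Adh1 r was 0.661, and it was 0.720 in the 23 glucose-normal and 0.719 in the 23 glucose-intolerant rats. Among the 38 rats above the Adh4 gap r was 0.420 (permutation p = 0.00785), and among the 8 below it r was 0.00. Splitting on Adh4 narrows the range of one of the genes correlated, which by itself lowers r inside each set, so these values are a description.

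Adh1 and Aldh1a1 had r = 0.514 (permutation p = 0.00037, adjusted 0.00185) and rho = 0.536 (permutation p = 0.00017, adjusted 0.00085). Without the 2 rats farthest in Adh1 r fell to 0.388 (permutation p = 0.00989), with 0.570 in glucose-normal and 0.494 in glucose-intolerant rats. Adh4 and Aldh1a1 had r = 0.486 (permutation p = 0.00062, adjusted 0.00207), while rho was 0.286 (permutation p = 0.0554, adjusted 0.138). Among the 38 rats above the Adh4 gap r was -0.01 (permutation p = 0.954), and among the 8 below it -0.02. The split narrows the range of Adh4 for this and every other Adh4 pair, so values within the sets are a description.

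Adh4 and Aldh3a2 had r = 0.382 (permutation p = 0.00925, adjusted 0.0231) and rho = 0.313 (permutation p = 0.0359, adjusted 0.120), with 0.438 in glucose-normal and 0.312 in glucose-intolerant rats, and r = 0.218 (permutation p = 0.191) above the gap. The other 6 pairs, among them all 4 with Aldh2, had r between -0.12 and 0.26 and none passed. In all, 4 of 10 pairs passed by Pearson and 2 by Spearman. How often other pairs of genes reach such r over these rats was not computed. These counts therefore do not set the dehydrogenases apart from other genes. Adh1 and Aldh3a2 moved from r = 0.198 (permutation p = 0.191) to 0.409 (permutation p = 0.00646) without the 2 rats farthest in Adh1.

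**Figure D5:**
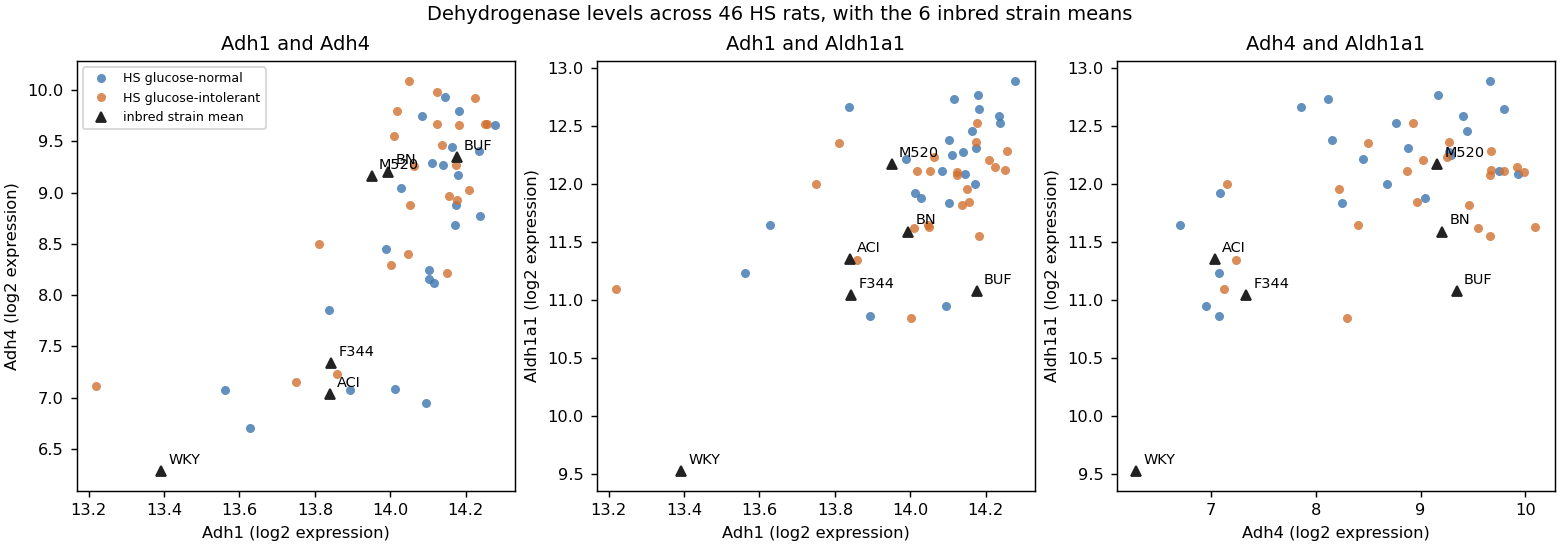
Log2 expression of Adh4 against Adh1, Aldh1a1 against Adh1 and Aldh1a1 against Adh4 in the 46 HS rats (circles, coloured by glucose group), with the 6 inbred strain means as labelled triangles. The low set of 8 rats under an Adh4 level of 7.23 stands apart from the other 38, and the WKY mean has the lowest Adh1, Adh4 and Aldh1a1 level of the 6 strains.

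The 3 genes most like each dehydrogenase over the 46 HS rats were taken by Pearson r, as a description on shared arrays. Adh1 was followed by Adh7 (r = 0.748), Adh5 (0.732) and Rxrg, a retinoid X receptor (0.614). For Adh4 they were Adh5 (0.731), Sh3gl3 (0.598) and Me1, the malic enzyme (0.593). Adh7 and Adh5 kept a like r with Adh1 over the 6 strain means (0.772 and 0.775), as did Adh5 with Adh4 (0.763), whereas r over strain means was -0.87 for Sh3gl3, -0.17 for Me1 and -0.42 for Rxrg.

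Aldh1a1 was most like Gsta3, a glutathione transferase (r = 0.645, and 0.543 over strain means), Fas (0.593 and -0.32) and Commd3 (0.579 and 0.07). Aldh2 was most like Bst2 (0.705, and 0.824 over strain means), Raly (0.697 and 0.666) and the protein disulfide isomerase Pdia3 (0.682 and 0.188). Aldh3a2 was most like Ehhadh, a peroxisomal enzyme of fatty acid oxidation (0.704, and 0.818 over strain means), the aconitase Aco1 (0.679 and 0.477) and the fatty acyl-CoA synthetase Slc27a2 (0.652 and 0.815).

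The study set liver expression of HS rats with impaired glucose tolerance against that of HS rats with normal tolerance. For these genes no difference passed the test. Adh4 ran from 6.70 through a median of 8.77 to 9.93 in the 23 glucose-normal rats and from 7.12 through 9.26 to 10.09 in the 23 glucose-intolerant rats. The groups overlapped over nearly the whole range, with 16 of 23 intolerant rats above the normal median. The intolerant rats averaged 8.99 ± 0.90 and the normal rats 8.56 ± 1.02 (SD, n = 23 each), 0.43 apart with a 95% interval of -0.12 to 0.98 (limma adjusted p = 0.700).

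Aldh1a1 lay at 10.87, 12.25 and 12.89 (lowest, median, highest) in glucose-normal and at 10.85, 12.08 and 12.52 in glucose-intolerant rats. The groups overlapped, and 4 of 23 intolerant rats exceeded the normal median. The means were 11.91 ± 0.42 and 12.14 ± 0.55 (SD, n = 23 each), a difference of -0.23 with a 95% interval of -0.51 to 0.05 (limma adjusted p = 0.688).

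The other genes differed by less. Adh1 lay at 13.56, 14.11 and 14.28 (lowest, median, highest) in glucose-normal and 13.22, 14.12 and 14.26 in glucose-intolerant rats, a mean difference of -0.02 (95% interval -0.14 to 0.10; limma adjusted p = 0.956). Its second probe set differed by -0.07 (95% interval -0.45 to 0.31; adjusted p = 0.947). Aldh2 lay at 12.53, 12.90 and 13.10 against 12.71, 12.91 and 13.10, a difference of 0.03 (95% interval -0.04 to 0.09; limma adjusted p = 0.871). Aldh3a2 lay at 12.04, 12.30 and 12.63 against 12.08, 12.32 and 12.52, a difference of 0.01 (95% interval -0.07 to 0.09; adjusted p = 0.973). For Aldh2 and Aldh3a2 the intervals held no difference above 0.09 on the log2 scale, while for Adh4 they reached 0.98.

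With limma 0 of the 5 genes and 0% of all probe sets passed an adjusted p of 0.05 in the glucose comparison. At an unadjusted p under 0.05 there were 0 of the 5 genes, and 1223 of 14217 genes. Limma with array weights called 12 probe sets in all, with a residual component as covariate 185 and after quantile normalisation 1, none of them a dehydrogenase described here.

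In the other lists no gene passed either. At an unadjusted p under 0.05 were 0 of 6 other alcohol dehydrogenases, 4 of 14 other aldehyde dehydrogenases, 3 of 6 ethanol and acetate genes and 1 of 27 retinoid genes. Aldh1l2, a mitochondrial folate enzyme, differed by 0.30 (limma p = 0.0050, adjusted 0.445) and Aldh1a3 by -0.14 (p = 0.0128, adjusted 0.502). Cyp2e1 differed by -0.08 (limma p = 0.00989, adjusted 0.50), Acss1, an acetate-activating enzyme, by -0.16 (p = 0.0162, adjusted 0.522) and the retinoic acid receptor Rarb by 0.28 (p = 0.000952, adjusted 0.282). Acss1 averaged 4.74 in glucose-normal and 4.59 in glucose-intolerant rats, below the array medians. Hepatocyte marker levels spanned 13.50 to 13.76 in glucose-normal and 13.54 to 13.77 in glucose-intolerant rats.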

How the data were processed

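Liver RNA of 58 male rats was amplified in 2 cycles, biotin-labelled and hybridised to Affymetrix rat arrays, per the labels' protocols. The authors deposited log2 expression values for 31042 probe sets, which were used as given. Background correction and normalisation were not given in the sources used here. Partek is named in the submitters' processing notes, with no version. Platform annotation gave 1 symbol to 20826 probe sets, several to 436 and none to 9780. Probe sequences were not used, so neither strain variants under probes nor binding to related family transcripts was tested. The genes and lists were chosen with earlier results of these data known.

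R 4.3.3 and limma 3.58.1 (lmFit, eBayes) were run on all probe sets, with Benjamini-Hochberg adjustment over 31042 and an adjusted p of 0.05 as the limit. The fit of the glucose groups took 46 HS arrays (44 residual degrees of freedom) and that of the strains 12 inbred arrays (6 residual degrees of freedom). Correlations used 100000 permutations. The fits were tested on simulated data. Genes named were the dehydrogenases, the 3 genes nearest to each, and in each list up to 4 genes of smallest strain p past the threshold and up to 2 of smallest glucose p; of the cell type and zone lists 2 genes called in WKY were named, chosen after their values were seen. Cyp2e1 among strains and Hnf4a were also named after their values were seen. Alternatives covered scaling, dim probe sets, 1 probe set per gene, variance moderation, array weights, a residual covariate, all arrays in 1 fit, the replicate number as a block and single arrays left out. In the main fits the arrays were not paired by replicate number.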

Additional observations from a re-analysis of the deposited data

How the results depend on the processing

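In the glucose comparison 0 of the 5 genes were called under any of the 9 alternatives, and each difference kept its sign. The strain F test called 3 genes under 19 of 21 alternatives and lost Adh1 without WKY replicate 1 and without both WKY arrays (added after seeing the data; 2 genes, adjusted p of Adh1 0.207). Leaving out single arrays gave 2 to 3 genes in the F test, 8 to 10 single-strain differences (10 with all arrays) and 17 to 24 pairwise differences (19 with all arrays). With all 58 arrays in 1 fit there were 4 single-strain and 9 pairwise differences. With the 8 HS rats below the Adh4 gap left out of the Adh4 pairs alone, an alternative added after seeing the data, 2 of the 10 pairs passed instead of 4, one of them (Adh1 and Aldh1a1) still over all 46 rats, and r of Adh4 and Aldh1a1 turned to -0.00993. This split is made on Adh4 itself and narrows its range. With quantile normalisation the Adh4 and Aldh3a2 pair was lost (adjusted p = 0.164). Over all probe sets the F test called 3700, against 2241 genes with 1 probe set per gene, 2130 and 2241 without ACI replicate 1 or 2, 2437 without M520 replicate 1 and 5945 without BUF replicate 1.

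With the replicate number as a block, the F test called 3 of the 5 genes, with 10 single-strain and 18 pairwise differences and 3698 probe sets. The pairwise difference lost was that of Aldh1a1 between BUF and M520 (adjusted p = 0.0522 with the block, 0.0481 without), and no single-strain or F test call of the 5 genes changed. Same-numbered arrays deviated together over 0.1 in 3 of 15 pairs of strains (correlations from -0.15 to 0.42). These values cannot tell whether arrays of some strains were handled together under a number. With 2 arrays per strain and no batch in the labels, small strain differences could be missed. How small depends on the error pooled over the strains. The SE of a difference between 2 strains was 0.12 for Adh1 and 0.28 for Aldh1a1.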
